A study of Mus musculus with 12 samples.

Results

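The urea cycle genes were taken as 8 genes, the enzymes Nags, Cps1, Otc, Ass1, Asl and Arg1 and the mitochondrial carriers Slc25a15 and Slc25a13. They were found by gene symbol among 54839 annotated features, and all 8 passed the filter on low counts that left 17121 genes for testing. The study sorted hepatocytes, the main metabolic cells of the liver, from male p16-Tom mice into a tdTomato-positive (Tom+) and a tdTomato-negative (Tom-) fraction, and sequenced polyadenylated RNA in bulk from mice given corn oil or carbon tetrachloride (CCl4) in corn oil, a toxin that injures the liver and, when repeated, scars it. There were 12 libraries in 4 groups of 3, named Tom- oil, Tom+ oil, Tom- CCl4 and Tom+ CCl4. All mice were on a C57BL/6 background, were heterozygous for a tamoxifen-activated Cre recombinase under the control of the senescence gene p16 together with a Cre-dependent tdTomato reporter in the Rosa26 locus, and received tamoxifen, so the controls carried both alleles and the drug as well. The red label marks cells in which the p16 promoter was active when tamoxifen was given, and their descendants, and not the p16 level at harvest. The sources used here give no age of these mice and do not say how many mice stand behind a library, so the p-values measure the spread between libraries.

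The urea cycle turns ammonia, which is toxic to the brain, into urea, and it runs almost entirely in hepatocytes. Its first steps take place in mitochondria, where N-acetylglutamate made by Nags switches on Cps1, the entry enzyme, and Otc joins its product to ornithine to make citrulline. In the cytosol Ass1 adds aspartate to citrulline, Asl splits the product into arginine and fumarate, and Arg1 releases urea and returns ornithine, while Slc25a15 carries ornithine into and citrulline out of mitochondria and Slc25a13 (citrin) exports the aspartate. The enzymes are known to be most abundant in hepatocytes near the portal vein (zone 1), whereas the hepatocytes next to the central vein (zone 3) take up the remaining ammonia with glutamine synthetase, encoded by Glul. CCl4 is known to act mainly on zone 3.

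Levels are normalized CPM, read counts scaled to the size of the library with edgeR's TMM factors, unless they are called TPM, which also divide by gene length. A gene is called changed at an adjusted p under 0.05 together with a log2 fold change beyond 0.75, the thresholds the study used, and it is said to have passed the adjusted p alone where the fold was smaller. Depth ran from 37568584 to 75331424 counts per library (median 47910752), and the member with the fewest counts, Nags, had at least 2790 in each library. The hepatocyte gene Alb was the most abundant gene, with 7.41% to 11.3% of the counts. Of 8 hepatocyte markers 7 were matched and none was at 0, and their summed level was 89455 to 118416 CPM in Tom- oil, 106922 to 116771 CPM in Tom+ oil, 123652 to 134280 CPM in Tom- CCl4 and 95495 to 106468 CPM in Tom+ CCl4. A transgene feature taken as the tdTomato reporter was at 1794 CPM in the library labelled Tom- oil replicate 1 and at 135 CPM in the library labelled Tom+ oil replicate 2, against the label in both, whereas in CCl4 it was at 120 to 263 CPM in Tom- and 1316 to 1369 CPM in Tom+. Members and gene lists were therefore also tested without these 2 libraries, and the calls this changes are given.

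The largest differences lay in Tom+ hepatocytes between CCl4 and oil. Cps1, Ass1 and Asl were lower in Tom+ CCl4, at 52.6%, 45.5% and 52.6% of their Tom+ oil level, and they were the 3 of 8 members called there. Nags and Otc passed in none of the 5 comparisons, and Slc25a13, at 132% of its Tom- CCl4 level in Tom+ CCl4, was the member that passed the adjusted p in the higher direction. The sequences before 3 members are shown because these stand for the 3 patterns, Ass1 for a fall in Tom+ CCl4, Slc25a13 for the higher level and Otc for a member that passed in none of the 5 comparisons. They are read from RefSeq on GRCm38.p6, 5′ to 3′ on the strand of the gene, and end at the base before the first exon in the deposited annotation. Capitals mark matches to the motifs searched.
Ass1 (chr2:31470020-31470206, plus strand, 187 bases, 75.4% G or C): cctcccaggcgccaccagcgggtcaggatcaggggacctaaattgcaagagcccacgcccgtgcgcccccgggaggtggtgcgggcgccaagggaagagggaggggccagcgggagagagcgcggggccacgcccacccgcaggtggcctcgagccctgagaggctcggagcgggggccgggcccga
Slc25a13 (chr6:6217174-6217423, minus strand, 250 bases, 62.8% G or C): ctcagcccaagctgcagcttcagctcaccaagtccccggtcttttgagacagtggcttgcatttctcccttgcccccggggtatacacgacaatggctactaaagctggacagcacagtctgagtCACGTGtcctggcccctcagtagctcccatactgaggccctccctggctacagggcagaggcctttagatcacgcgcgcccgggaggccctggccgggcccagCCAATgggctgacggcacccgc
Otc (chrX:10252055-10252304, plus strand, 250 bases, 43.6% G or C): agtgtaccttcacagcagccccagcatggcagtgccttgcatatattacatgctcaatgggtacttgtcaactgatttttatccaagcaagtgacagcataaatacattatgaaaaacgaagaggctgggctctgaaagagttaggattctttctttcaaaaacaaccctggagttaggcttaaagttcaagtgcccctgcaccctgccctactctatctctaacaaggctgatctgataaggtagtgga
The motifs were searched on both strands in the 250 bases before each RefSeq start. The window of Slc25a13 held an E-box, CACGTG, beginning 125 bases before the start and a CCAAT box, CCAAT, 22 bases before it. The window of Ass1, which runs past the stretch shown, held a GC box, GGGCGG, 63 bases and CACGTG 36 bases before the RefSeq start. The window of Otc held none of the 7 motifs. CACGTG occurred in 6.02% of 32851 promoter windows of the same length, CCAAT in 33.8% and GGGCGG in 32.7%. The letters of a C/EBP site, TTGCNNAA (9.56% of windows), of a cAMP response element, TGACGTCA (1.55%), of an HNF4 core, CAAAGTCC (1.2%), and of a TATA box, TATAAA (12.4%), were in none of these 3 windows. Nags and Slc25a15 also matched the table, and Cps1, Asl and Arg1 did not.

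Per base of the deposited gene lengths, the members kept nearly the same order of abundance in every library. Median levels over the 12 libraries were 3788 TPM for Ass1, 1664 TPM for Cps1, 922 TPM for Arg1, 372 TPM for Asl, 186 TPM for Otc, 179 TPM for Slc25a15, 96.1 TPM for Slc25a13 and 65.9 TPM for Nags. Each neighbour in this order held its place in 12 of 12 libraries except Otc and Slc25a15, which stood in this order in 8 of 12 and could not be ranked. Ass1 was the 40th and Nags the 1512th most abundant of all features. Together the 8 genes made up 0.852% ± 0.113 of all TPM in Tom- oil, 0.937% ± 0.162 in Tom+ oil, 0.616% ± 0.0943 in Tom- CCl4 and 0.537% ± 0.0886 in Tom+ CCl4 (SD, n = 3).

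**Figure D1:**
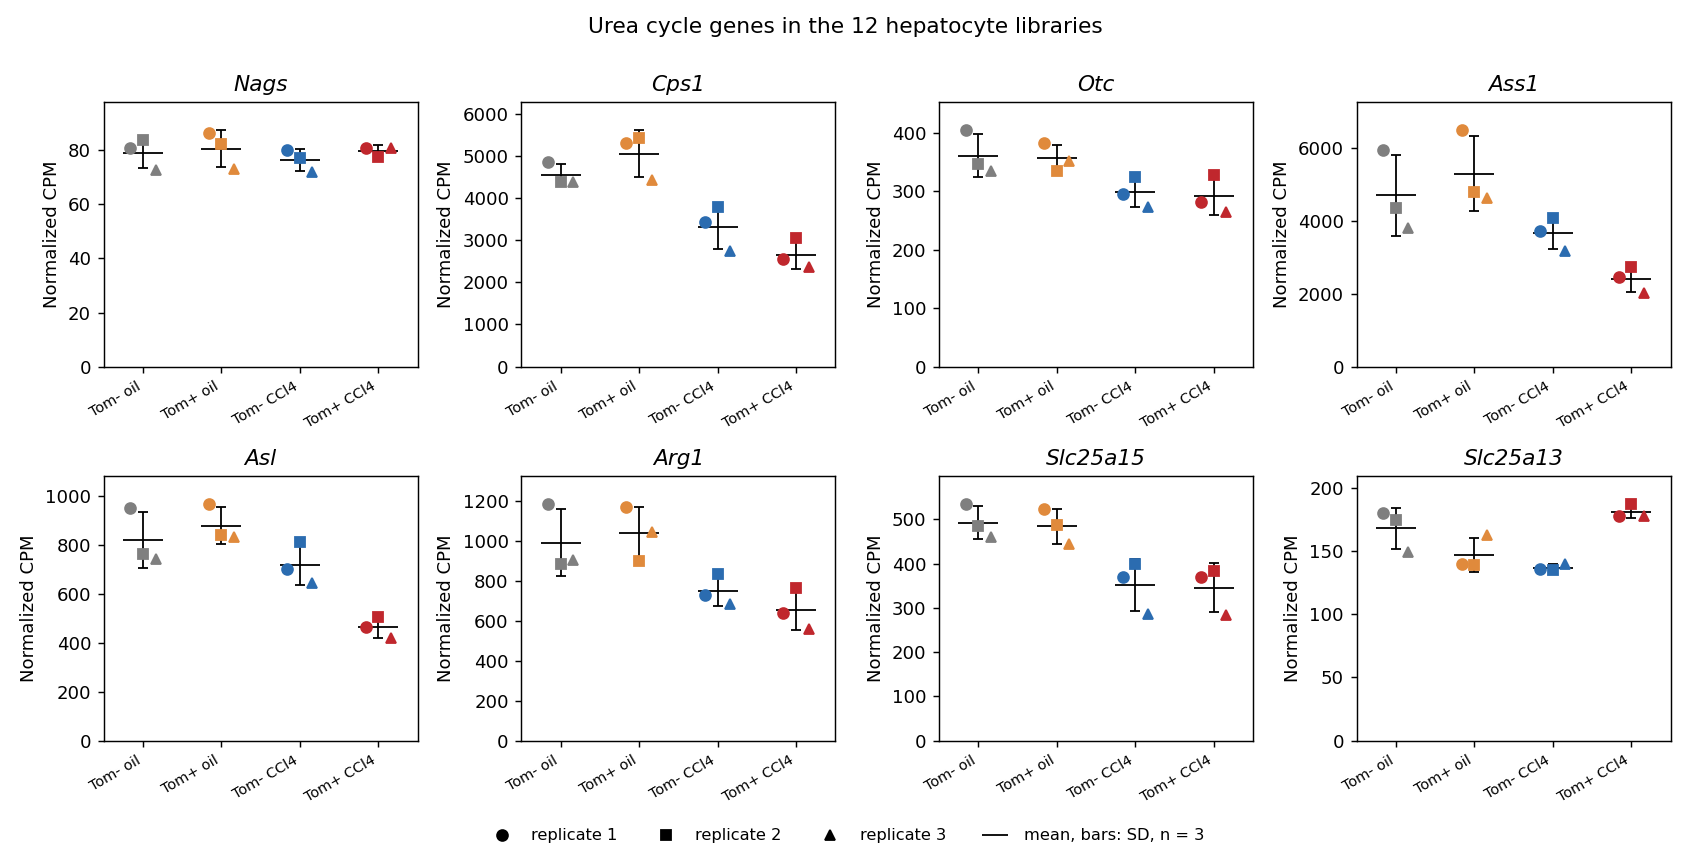
Normalized CPM (vertical axes, from 0) of the 8 urea cycle genes in each library of the 4 groups, with the mean and SD of 3 libraries as bars. Cps1, Ass1 and Asl lie lowest in Tom+ CCl4, Nags lies between 72.1 and 86.3 CPM in all libraries, and the Tom+ CCl4 libraries of Slc25a13 lie at 178 to 187 CPM, above those of Tom- CCl4.

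Positions are those of the deposited annotation on mm10. Nags (ENSMUSG00000048217, chromosome 11, 102145513 to 102149477, plus strand) makes N-acetylglutamate, the activator of Cps1. Its levels in replicates 1, 2 and 3 were 80.9, 83.8 and 72.8 CPM in Tom- oil, 86.3, 82.4 and 73.1 CPM in Tom+ oil, 80.1, 77.1 and 72.1 CPM in Tom- CCl4, and 81.0, 77.4 and 81.0 CPM in Tom+ CCl4. All groups overlapped, and the log2 fold changes of the 4 comparisons lay between -0.05 and 0.06. The 95% intervals of the 4 comparisons lay within -0.23 and 0.25 on the log2 scale. The gene overlaps the antisense gene Gm11586, which had at most 894 counts in a library, and since the strand setting of the counting is not given in the sources used here, some reads could be shared.

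Cps1 (ENSMUSG00000025991, chromosome 1, 67123026 to 67231259, plus strand) makes carbamoyl phosphate from ammonia and is one of the most abundant mitochondrial proteins of the liver. It was at 4847, 4387 and 4388 CPM in Tom- oil replicates 1, 2 and 3, at 5303, 5429 and 4423 CPM in Tom+ oil, at 3426, 3790 and 2734 CPM in Tom- CCl4 and at 2557, 3051 and 2367 CPM in Tom+ CCl4. Every CCl4 library was below every oil library, and the Tom+ CCl4 and Tom- CCl4 libraries overlapped. In Tom+ hepatocytes the log2 fold change of CCl4 against oil was -0.93 (SE 0.14, edgeR adjusted p = 0.00123), with a 95% interval of -1.22 to -0.63. In Tom- hepatocytes it was -0.45 (SE 0.14, edgeR adjusted p = 0.0389), which passed the adjusted p alone. That p was 0.141 without the 2 oil libraries whose reporter went against the label. It stayed under 0.05 in 6 of 12 cases when single libraries were left out (edgeR adjusted p up to 0.136).

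Otc (ENSMUSG00000031173, chromosome X, 10252305 to 10321024, plus strand), the X-linked enzyme that makes citrulline, was at 404, 346 and 334 CPM in Tom- oil, 382, 334 and 352 CPM in Tom+ oil, 296, 324 and 273 CPM in Tom- CCl4 and 282, 327 and 265 CPM in Tom+ CCl4. All 6 CCl4 libraries were below all 6 oil libraries, and within a treatment the fractions overlapped. The log2 fold change of CCl4 against oil was -0.28 in Tom- (edgeR adjusted p = 0.0978) and -0.29 in Tom+ (edgeR adjusted p = 0.119), so neither passed. Averaged over both fractions it was -0.28 (edgeR adjusted p = 0.0187), which passed the adjusted p alone.

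Ass1 (ENSMUSG00000076441, chromosome 2, 31470207 to 31520672, plus strand), which joins citrulline and aspartate, was the most abundant member. In replicates 1, 2 and 3 its level was 5938, 4359 and 3800 CPM in Tom- oil, 6478, 4778 and 4633 CPM in Tom+ oil, 3733, 4085 and 3184 CPM in Tom- CCl4 and 2466, 2738 and 2028 CPM in Tom+ CCl4. The Tom+ CCl4 libraries were below all 9 others, and Tom- CCl4 overlapped Tom- oil. Against Tom+ oil, the log2 fold change in Tom+ CCl4 was -1.14 (SE 0.18, edgeR adjusted p = 0.00222), the largest of any member in any of the 4 comparisons between groups. Against Tom- CCl4 it was -0.61 (SE 0.18, edgeR adjusted p = 0.0654, and 7.2e-05 blocked on replicate number). Part of the signal of Ass1 cannot be placed with certainty, because the processed pseudogene Gm5424 (chromosome 10, 62071123 to 62072362) is identical to the Ass1 transcript at 1234 of 1240 aligned bases. Gm5424 held 15.0% to 17.0% of the counts of the pair in every library, and with the counts of both summed the log2 fold changes kept their direction and their call.

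Asl (ENSMUSG00000025533, chromosome 5, 130011258 to 130029247, minus strand), which makes arginine, was at 949, 763 and 742 CPM in Tom- oil, 964, 838 and 831 CPM in Tom+ oil, 702, 809 and 644 CPM in Tom- CCl4 and 463, 503 and 420 CPM in Tom+ CCl4. The highest Tom+ CCl4 library was thus below the lowest library of every other group. In Tom+ hepatocytes CCl4 against oil had a log2 fold change of -0.93 (SE 0.12, edgeR adjusted p = 5.6e-04), and in CCl4 Tom+ against Tom- had -0.64 (SE 0.12, edgeR adjusted p = 0.0124), short of the fold threshold. The latter p was 0.0763 without Tom- CCl4 replicate 2. In Tom- hepatocytes CCl4 against oil had -0.19 (SE 0.12, edgeR adjusted p = 0.319), and -0.0636 without the 2 doubtful oil libraries.

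Arg1 (ENSMUSG00000019987, chromosome 10, 24915221 to 24927484, minus strand), which releases urea, was at 1185, 886 and 907 CPM in Tom- oil, 1170, 903 and 1046 CPM in Tom+ oil, 731, 838 and 686 CPM in Tom- CCl4 and 641, 766 and 560 CPM in Tom+ CCl4. As for Otc, all CCl4 libraries lay below all oil libraries and the fractions overlapped. Its log2 fold change was -0.67 in Tom+ (SE 0.15, edgeR adjusted p = 0.0131), which passed the adjusted p alone, and -0.40 in Tom- (SE 0.15, edgeR adjusted p = 0.0796). The Tom+ value no longer passed without Tom+ oil replicate 1 (edgeR adjusted p = 0.0648) or without Tom+ CCl4 replicate 3 (edgeR adjusted p = 0.0659), and it was called, at -0.75, without the 2 oil libraries whose reporter went against the label. Arg2, the arginase of other tissues, was at 0.0895 to 0.238 CPM on average in the groups and did not pass in any comparison.

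Slc25a15 (ENSMUSG00000031482, chromosome 8, 22375551 to 22398597, minus strand), the ornithine carrier, was at 534, 486 and 460 CPM in Tom- oil, 524, 487 and 445 CPM in Tom+ oil, 370, 399 and 286 CPM in Tom- CCl4 and 371, 384 and 283 CPM in Tom+ CCl4. The CCl4 libraries were all below the oil libraries, and the fractions had nearly equal values. CCl4 against oil had a log2 fold change of -0.49 in each fraction (SE 0.14, edgeR adjusted p = 0.0297 in Tom- and 0.0418 in Tom+). Leaving out single libraries in turn kept the adjusted p under 0.05 in 9 of 12 cases in Tom- (up to 0.11) and in 4 of 12 in Tom+ (up to 0.181). Its paralog Slc25a2 did not pass the filter on low counts.

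Slc25a13 (ENSMUSG00000015112, chromosome 6, 6041218 to 6217173, minus strand), the aspartate carrier citrin, was at 180, 175 and 149 CPM in Tom- oil, 140, 139 and 163 CPM in Tom+ oil, 136, 135 and 140 CPM in Tom- CCl4 and 178, 187 and 178 CPM in Tom+ CCl4. In CCl4 the fractions did not overlap, and Tom+ had the higher level, with a log2 fold change of 0.40 (SE 0.092, edgeR adjusted p = 0.0239). In oil the fractions overlapped, at -0.19 (SE 0.092, edgeR adjusted p = 0.722). CCl4 against oil was -0.29 in Tom- (edgeR adjusted p = 0.0453) and 0.30 in Tom+ (edgeR adjusted p = 0.0559). When single libraries were left out, the Tom- value passed in 3 of 12 cases (edgeR adjusted p up to 0.135). The Tom+ value also passed in 3 of 12 (up to 0.191). Without single libraries the Tom+ against Tom- difference in CCl4 passed in 7 of 12 cases, with an adjusted p of up to 0.107, at log2 fold changes of 0.38 to 0.42. Slc25a12 (aralar), the related carrier that prevails in brain and muscle, was at 20.8 to 26.2 CPM on average and did not pass in any comparison.

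The comparisons share libraries with each other. CCl4 against oil asks how the hepatocytes of each fraction differ after toxin exposure. In Tom+ hepatocytes 3 of 8 members were called, all lower, where 5.24% of all 17121 genes were called and 2.34% were called lower. On the adjusted p alone 5 of 8 passed, all lower, against 9.47% of all genes. Groups did not overlap for 7 of 8 members, against 29.3% of all genes, and the median log2 fold change of the members was -0.58, beside 0.002 for all genes tested. The 3 calls held when each of the 12 libraries was left out in turn and without the 2 doubtful oil libraries. In Tom- hepatocytes 0 of 8 members were called by edgeR, where 7.92% of all genes were, and by DESeq2 and limma-voom the count was also 0. There 3 of 8 passed the adjusted p alone, all lower, against 16.1% of all genes, and 5 of 8 had an unadjusted p under 0.05, against 31.5% of all genes. All 8 values were below 0 with a median of -0.32, beside 0.005 for all genes, and 5 of 8 members did not overlap, against 36% of all genes. Without the 2 doubtful oil libraries none of the 8 passed, the lowest adjusted p being 0.131.

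**Figure D2:**
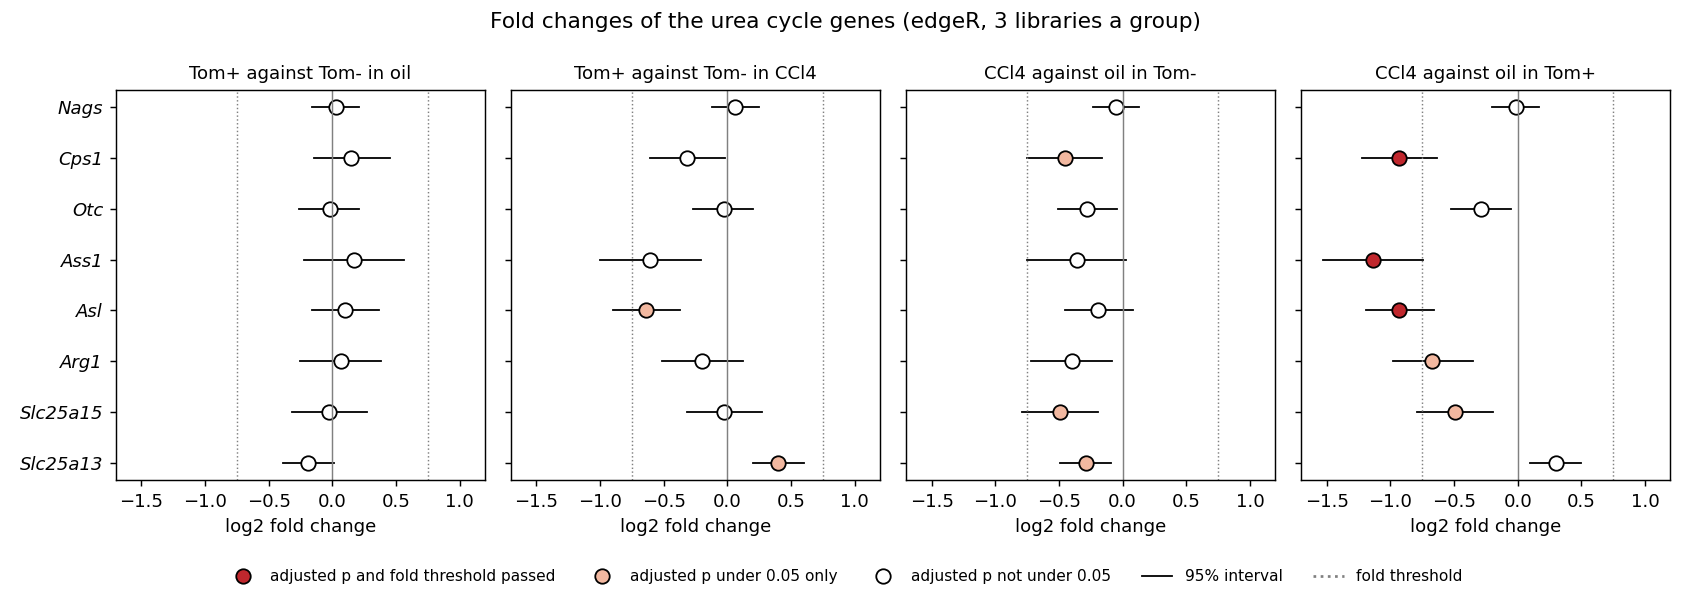
Log2 fold change of each urea cycle gene (horizontal axes) in the 4 comparisons between groups of 3 libraries, with 95% intervals from edgeR and dotted lines at the fold threshold of 0.75. Filled red points pass both thresholds and are seen only for Cps1, Ass1 and Asl in CCl4 against oil in Tom+.

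Tom+ against Tom- asks how the labelled hepatocytes differ from the unlabelled ones of mice with the same treatment. In CCl4 0 of 8 members were called by edgeR, DESeq2 or limma-voom, where edgeR called 1.96% of all genes, and 4 of 8 had an unadjusted edgeR p under 0.05, against 22.8% of all genes. Asl and Slc25a13 passed the adjusted p alone, in opposite directions, against 5.79% of all genes. Blocked on replicate number, 4 of 8 passed, against 17.7% of all genes. Cps1 (edgeR adjusted p = 0.0107), Ass1 (7.2e-05) and Asl (4.7e-05) were lower and Slc25a13 (0.00681) higher. Ass1, Asl and Slc25a13 did not overlap between the fractions, as 28.7% of all genes did not. The differences between same-numbered libraries were close to each other for Ass1, at -0.60, -0.58 and -0.65 on the log2 scale, and for Asl, at -0.60, -0.69 and -0.62. The median over the 8 members was -0.11, beside 0.004 for all genes tested. In oil 0% of all genes and 0 of 8 members were called by edgeR, on the adjusted p alone as well, with 7.0% of all genes and none of the members at an unadjusted p under 0.05, and DESeq2 called 17 genes, limma-voom 0 and the blocked edgeR fit 40, with no member among them. No member failed to overlap there, as 11.7% of all genes did, and the intervals of the log2 fold change reached from -0.39 for Slc25a13 to 0.56 for Ass1.

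The interaction asks whether the difference between fractions itself differed between CCl4 and oil. It was 0.59 on the log2 scale for Slc25a13 (SE 0.13, edgeR adjusted p = 0.0446, and 0.008 blocked on replicate number), which passed the adjusted p alone and had an adjusted p of 0.135 without the 2 doubtful oil libraries. It was -0.74 for Asl (SE 0.17, edgeR adjusted p = 0.0532, block 2.6e-04), and -0.89 without the 2 doubtful oil libraries (edgeR adjusted p = 0.0437), where it was called. It was -0.78 for Ass1 (SE 0.26, edgeR adjusted p = 0.13, block 1.9e-04) and -0.47 for Cps1 (SE 0.19, edgeR adjusted p = 0.216, block 0.0123). Both thresholds called 0 of 8 members in edgeR without the block, with 4 at an unadjusted p under 0.05 against 18.6% of all genes, where 1.17% of all genes were called. Ass1 was called with the block, where 5.48% of all genes were, and by DESeq2, and limma-voom called 0. The adjusted p alone gave 1 of 8 without the block against 1.55% of all genes, and 4 of 8 with it against 12.5%. Arg1 had -0.26 (edgeR adjusted p = 0.533), and -0.50 without the 2 doubtful oil libraries (edgeR adjusted p = 0.282). Otc, Nags and Slc25a15 had interactions between -0.01 and 0.04, and Otc -0.14 without those libraries. Cps1, Ass1 and Asl were higher in Tom+ in all 3 same-numbered pairs in oil and lower in all 3 in CCl4, and 11.8% of all genes (2013 of 17121) switched side in this way in either direction. The oil pairs numbered 1 and 2 hold the doubtful libraries, Tom- oil replicate 1 and Tom+ oil replicate 2. The blocked p-values of the interaction rest on the same pairs, and the blocked fit was not run without those libraries.

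**Figure D3:**
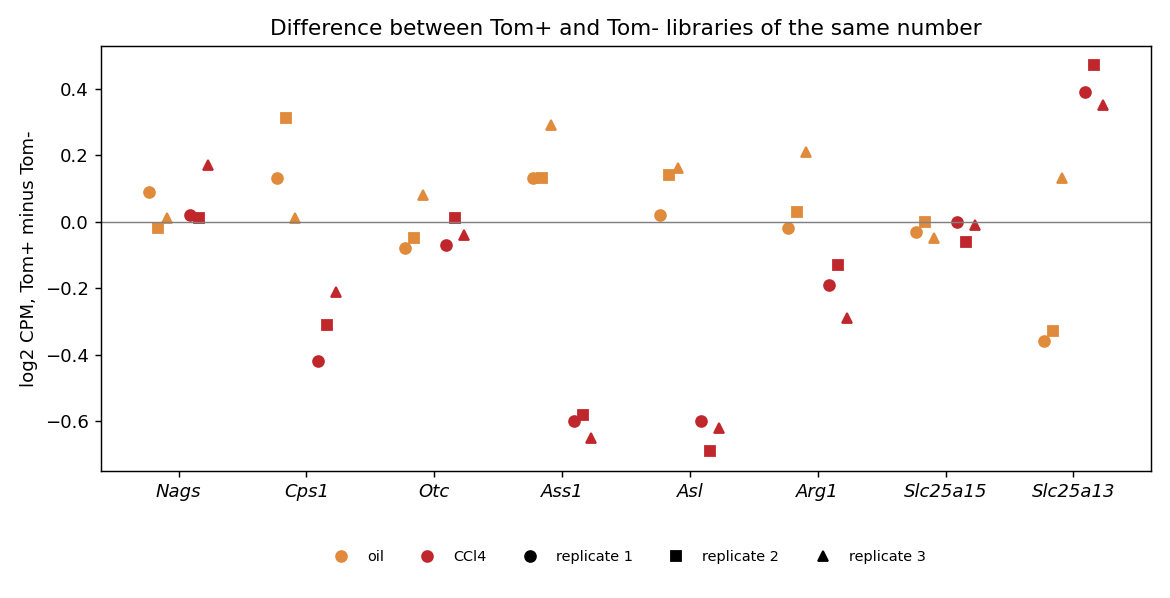
Difference in log2 CPM between the Tom+ and the Tom- library of the same number (vertical axis) for each urea cycle gene, oil in orange and CCl4 in red, with 1 symbol per replicate number. Ass1 lies at 0.13 to 0.29 in oil and at -0.65 to -0.58 in CCl4, Slc25a13 lies at 0.35 to 0.47 in CCl4, and Slc25a15 lies near 0 in both. The oil symbols of replicates 1 and 2 involve Tom- oil replicate 1 and Tom+ oil replicate 2, whose reporter went against the label.

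Ratios between members of one library do not depend on the scaling of that library. The log2 ratio of Asl to Otc, from TPM, was 0.99 ± 0.05 in Tom- oil, 1.11 ± 0.05 in Tom+ oil, 1.08 ± 0.05 in Tom- CCl4 and 0.48 ± 0.05 in Tom+ CCl4 (SD, n = 3). In linear terms the TPM ratio of Asl to Otc was 1.35 to 1.44 in Tom+ CCl4 and 1.93 to 2.22 in the other 9 libraries. It rests on the deposited gene lengths, so its absolute size is not a number of transcripts per transcript. The log2 ratio of Ass1 to Otc was 3.86 ± 0.10 in Tom+ CCl4 and 4.43 to 4.69 on average in the other groups, and that of Asl to Slc25a13 was 1.0 ± 0.10 against 1.93 to 2.23. Of 16 such tests, 4 ratios in 4 comparisons, none could pass. For each of these 3 ratios Tom+ CCl4 was below Tom- CCl4 and below Tom+ oil without overlap, at an exact two-sided permutation p of 0.1, the smallest that 3 libraries against 3 allow. This p does not set Tom+ CCl4 apart. Asl to Otc also reached it at log2 differences of 0.13 in Tom+ against Tom- in oil and 0.09 in CCl4 against oil in Tom-. Cps1 to Otc reached it in CCl4 against oil in Tom- (-0.19) and Tom+ (-0.64), and in Tom+ against Tom- in CCl4 (-0.28). In plain TPM the median of all tested genes was 0.24 higher in Tom+ CCl4 than in Tom- CCl4 on the log2 scale, so that Arg1 (0.04), Otc (0.20) and Slc25a15 (0.21) had ratios above 0 on that scale and, relative to that median, -0.20, -0.03 and -0.03. Ass1 and Asl were lower on both scales. In CCl4 against oil in Tom+ that median was 0.14 higher in plain TPM, and Nags was at 0.13, or -0.02 relative to it.

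**Figure D4:**
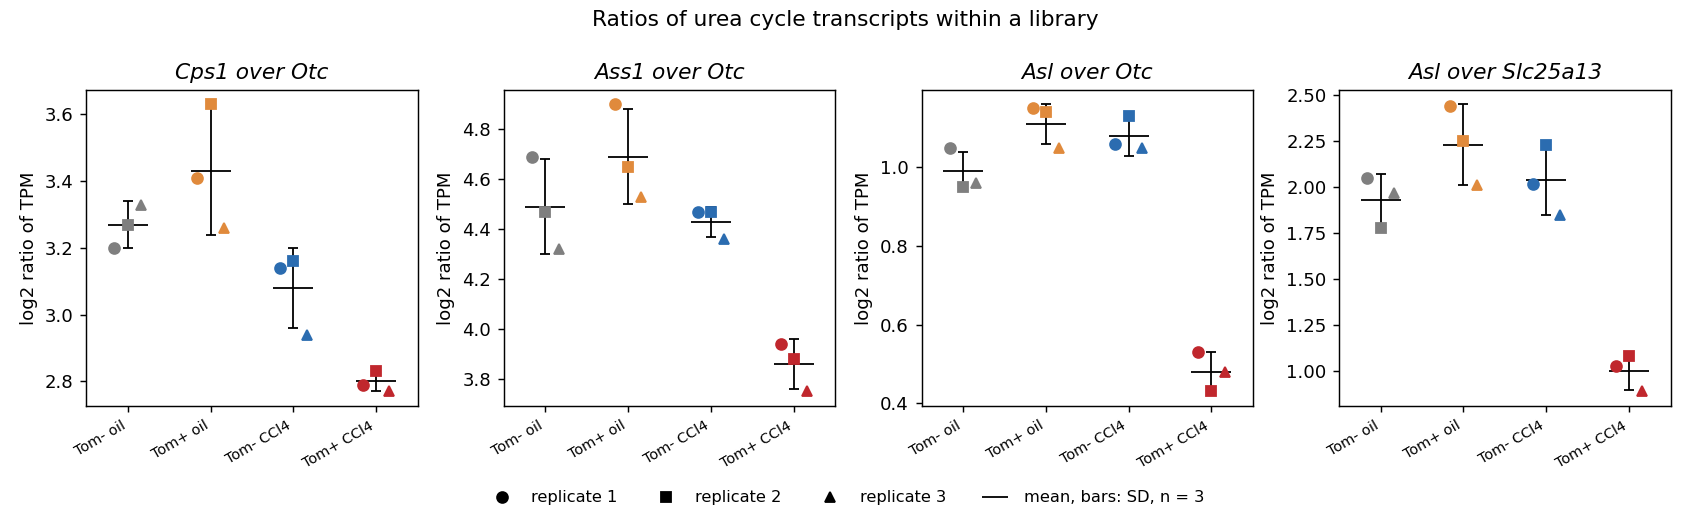
Log2 ratio of the TPM of 2 urea cycle genes within each library (vertical axes, not starting at 0), with the mean and SD of 3 libraries per group. The Tom+ CCl4 libraries lie below all other libraries in each panel, for Asl over Otc at 0.43 to 0.53.

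Genes that supply nitrogen to the cycle or remove ammonia by another route were given as a list of 23, of which 21 were tested. In CCl4, Tom+ against Tom-, only Gls2 was called, the liver glutaminase that releases ammonia from glutamine and a zone 1 gene. Its log2 fold change was -1.05 (SE 0.21, edgeR adjusted p = 0.0148). Gls2 was at 488, 491 and 340 CPM in Tom- CCl4 and at 252, 214 and 170 CPM in Tom+ CCl4, with no overlap. Glud1, glutamate dehydrogenase, was at 1004, 937 and 987 CPM in Tom- CCl4 and at 1315, 1313 and 1294 CPM in Tom+ CCl4, a log2 fold change of 0.42 (SE 0.088, edgeR adjusted p = 0.0174), above without reaching the fold threshold. Glul was at 84.4, 92.1 and 223 CPM in Tom- CCl4 and at 384, 224 and 468 CPM in Tom+ CCl4, and its log2 fold change of 1.43 did not pass (SE 0.83, edgeR adjusted p = 0.357). Blocked on replicate number, it was 1.51 (edgeR adjusted p = 0.0361). In CCl4 against oil, Tom+ hepatocytes had 4 of 21 called lower, Gls2 (-1.43), the cytosolic aspartate aminotransferase Got1 (-1.47), the alanine aminotransferase Gpt (-0.90) and the arginine transporter Slc7a2 (-1.04), and 1 called higher, the ammonia channel Rhbg (2.97). Tom- hepatocytes had 3 of 21 called, all lower, Got1 (-0.83), Slc7a2 (-0.77) and Oat, ornithine aminotransferase (-2.60). The interaction called Gls2 (-1.39) and the glutamine transporter Slc38a3 (-0.80), both lower. In Tom+ against Tom- in oil edgeR, DESeq2 and limma-voom called 0 of 21, with 4 at an unadjusted edgeR p under 0.05, against 7.0% of all genes. Over all genes edgeR called 1.96% in Tom+ against Tom- in CCl4 and 1.17% in the interaction. In CCl4 against oil it called 7.92% in Tom- and 5.24% in Tom+. Blocked on replicate number, 5 of 21 were called in Tom+ against Tom- in CCl4, 1 in oil and 6 in the interaction, where 3.98%, 0.234% and 5.48% of all genes were. Without the 2 doubtful oil libraries Glul was also called higher in CCl4 against oil in Tom+, Got1 and Slc7a2 were not called in Tom-, Oat was called higher in Tom+ against Tom- in CCl4, and the interaction called Oat and Aqp9 higher and not Slc38a3.

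**Figure D5:**
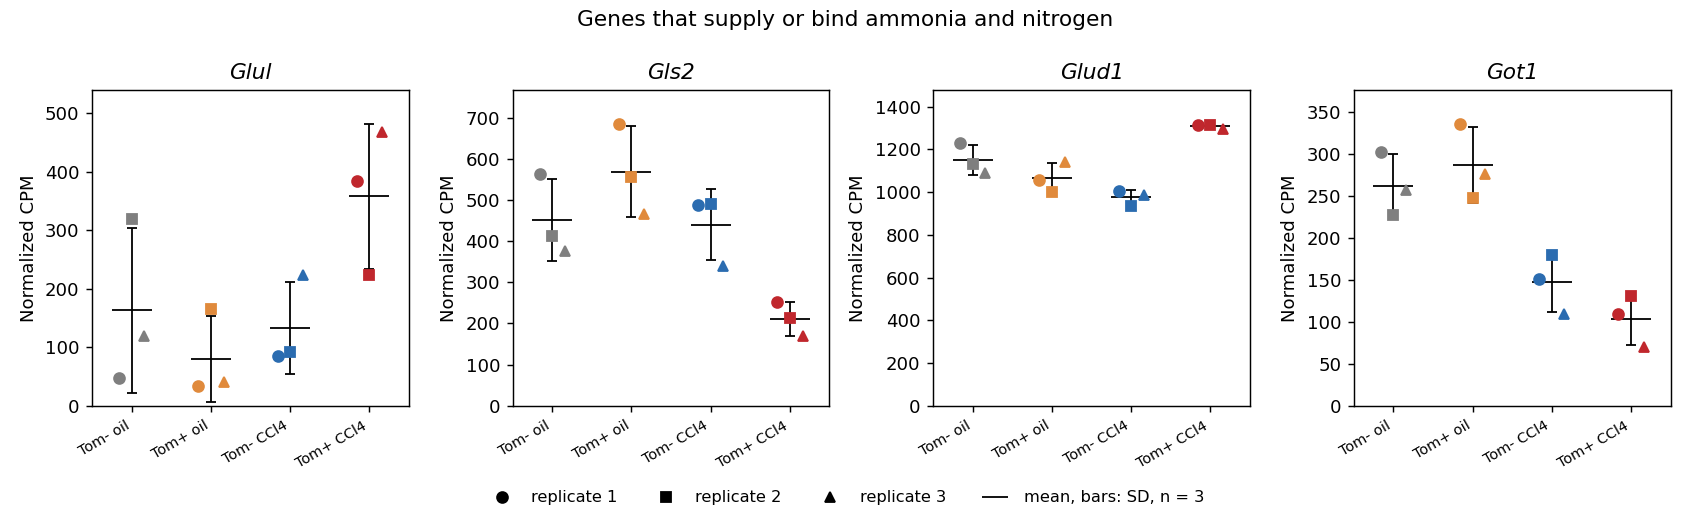
Normalized CPM (vertical axes, from 0) of glutamine synthetase (Glul), liver glutaminase (Gls2), glutamate dehydrogenase (Glud1) and cytosolic aspartate aminotransferase (Got1) in each library, with the mean and SD of 3 libraries. Gls2 is lowest in Tom+ CCl4 at 170 to 252 CPM, and Glul varies between replicates of every group.

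Among 12 genes that use arginine or ornithine, 11 were tested. In Tom+ against Tom- edgeR, DESeq2 and limma-voom called 0 of 11 in CCl4 and 0 of 11 in oil. At an unadjusted edgeR p under 0.05 were 4 and 1 of 11, against 22.8% and 7.0% of all genes. Gatm, which starts creatine synthesis, and Nos3, the endothelial nitric oxide synthase, were called higher in CCl4 against oil in Tom- (log2 fold changes 1.47 and 1.21), and Aldh18a1, of proline synthesis, and Amd1, of polyamine synthesis, in Tom+ (2.39 and 0.78). The interaction called Gatm (-0.95). Neither this nor Aldh18a1 was called without the 2 doubtful oil libraries. Over all genes edgeR called 7.92% in CCl4 against oil in Tom-, 5.24% in Tom+ and 1.17% in the interaction. Of 13 transcriptional and signalling regulators of the cycle, all tested, 0 were called by edgeR, DESeq2 or limma-voom in any comparison. Against 7.0% to 31.5% of all genes, 1 to 5 of these 13 regulators had an unadjusted edgeR p under 0.05. Their median log2 fold change was -0.19 in CCl4 against oil in Tom+ and -0.21 in Tom-. On the adjusted p alone 2 of 13 passed in Tom+, both lower, against 9.47% of all genes, and in Tom- 1 passed higher and 3 lower, against 16.1%.

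Zonated genes outside the cycle differed between the same groups. For the counts below, edgeR called 1.96% of all genes in Tom+ against Tom- in CCl4 and 0% in oil. The share was 7.92% in CCl4 against oil in Tom-, 5.24% in Tom+ and 1.17% in the interaction. Of 10 zone 1 genes, 5 were called lower in Tom+ against Tom- in CCl4 and none higher (median log2 fold change -0.93), namely Sds, Cyp2f2, Hsd17b13, Ctsc and Gls2. In CCl4 against oil in Tom+, 6 zone 1 genes were called lower, Sds, Hal, Cyp2f2, Hsd17b13, Ctsc and Gls2, and 1 higher, Apoa4, and of 10 zone 3 genes 5 were called higher, Cyp1a2, Axin2, Lgr5, Rgn and Gulo, with a median of 1.83. In Tom- hepatocytes Aldh1b1 and Apoa4 were called higher and Oat lower. In Tom+ against Tom- all 10 zone 3 genes had values above 0 in CCl4 (median 1.17) and below 0 in oil (median -0.98), with 0 called by edgeR in either. Unadjusted edgeR p under 0.05 were 3 and 2 of 10, against 22.8% and 7.0% of all genes. DESeq2 and limma-voom each called 1 and 0 of the 10 zone 3 genes. Blocked on replicate number edgeR called 6 and 4, where 3.98% and 0.234% of all genes were called. Without the 2 doubtful oil libraries Axin2 and Oat were called higher in Tom+ against Tom- in CCl4 and 0 of 10 zone 3 genes in oil, with all 10 there at an unadjusted p under 0.05 (median -1.88). In CCl4 against oil Glul, Cyp2e1 (higher) and Pck1 (lower) were then also called in Tom+, and in Tom- Cyp2e1 was called lower and Aldh1b1 was not called. The interaction called 1 zone 3 gene, Rgn, and 6 without those libraries, Axin2, Cyp2e1, Gulo, Lgr5, Oat and Rgn. All 10 zone 1 genes had interactions below 0 (median -1.31). Of these, Ctsc, Gls2, Hsd17b13 and Sds were called lower, with and without those libraries. Of 6 endothelial markers 4 were called lower in Tom+ against Tom- in CCl4, 6 higher in CCl4 against oil in Tom- (median 1.09) and 0 in Tom+, with a summed level of 211 to 230 CPM in Tom- CCl4, 111 to 149 CPM in Tom+ CCl4, 82.3 to 126 CPM in Tom- oil and 92.1 to 154 CPM in Tom+ oil. The summed level of 6 stellate cell markers was 4.88 to 15.8 CPM in oil and 28.8 to 64.6 CPM in CCl4, with 5 of 6 called higher in CCl4 against oil in Tom- and 4 in Tom+. Kupffer cell markers summed to 10.4 to 48.7 CPM in Tom- oil and 49.0 to 74.5 CPM in Tom- CCl4. In Tom+ they summed to 14.1 to 72.8 CPM in oil and 29.9 to 74.4 CPM in CCl4. Of these 6 markers edgeR called 0 in CCl4 against oil in either fraction. Blocked on replicate number, it called 6 in Tom- and 1 in Tom+, where 1694 and 1119 of all 17121 genes were called. Between treatments, libraries of one block share only a number. Cholangiocyte markers summed to 5.25 to 6.70 CPM in Tom- oil and 5.88 to 7.38 CPM in Tom+ oil. They summed to 8.47 to 12.9 CPM in Tom- CCl4 and 8.90 to 18.0 CPM in Tom+ CCl4, above every oil library. Between CCl4 and oil, 36% of all genes did not overlap in Tom- and 29.3% in Tom+. Only 2 of these 6 markers were tested. In CCl4 against oil edgeR called 0 of them in Tom- and 1, Spp1, in Tom+. With the block, which here also joins libraries by number only, it called 1, Sox9, in Tom- and 0 in Tom+. The cholangiocyte markers Krt19, Krt7, Epcam and Cftr were each at 0 in all libraries of at least 1 group, and no endothelial, stellate or Kupffer cell marker was. In bulk RNA, fewer cells of a kind and less RNA per cell cannot be told apart, and the part of zone composition and of other cells in the differences of the urea cycle genes was not tested.

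The genes most like the members in pattern were sought among 2701 other genes with a mean of at least 50 CPM, by Pearson correlation over the 12 libraries with the mean of the 8 centred log2 levels. They were Aldh1l1, of folate metabolism (r = 0.983), the Ass1 pseudogene Gm5424 (0.977), Got1 (0.976), Agxt, the peroxisomal enzyme that clears glyoxylate (0.970), Pxmp2, a peroxisomal membrane protein (0.969), Cth, of cysteine synthesis (0.963), Plpbp, which binds pyridoxal phosphate (0.956), and Fbp1, of gluconeogenesis (0.955). These are descriptions over libraries that share 4 group means. Gm5424 is 99.5% identical to Ass1 over the aligned bases, so its r is not separate from the mean that holds Ass1.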

How the data were processed

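Polyadenylated RNA was sequenced by the authors from 12 libraries, and per the labels the processing tools included fastp 0.23.2, HISAT2 2.1.0 and DESeq2 1.42.1 on mm10. The authors deposited 1 table of expected counts per gene, many of them not whole, with no normalization, and the counting program and its strand setting are not given in the sources used here. The tests had been planned for whole counts, so these were rounded to whole numbers. Symbols were matched to gene IDs for 99.8% of features. edgeR's quasi-likelihood test was used (edgeR 4.0.16, TMM factors, filterByExpr, robust, R 4.3.3) in one fit of all 12 libraries with a coefficient per group, with Benjamini-Hochberg adjustment over 17121 genes, and the script was checked on simulated data. SEs and 95% intervals come from that fit. DESeq2 1.42.0, limma-voom 3.58.1, other factors and filters, the replicate number as a block and leaving out libraries were alternatives, and summing Ass1 with Gm5424 and testing the lists without the 2 doubtful oil libraries were added after seeing the data. TPM were computed here from the rounded counts and the deposited lengths.

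The labels number the replicates 1 to 3 in each group. Deviations from the group means of the Tom+ and Tom- library of the same number correlated at 0.205, 0.231 and 0.318 in oil and 0.247, 0.187 and 0.401 in CCl4 over 17121 genes. Libraries of different numbers correlated at -0.211 to 0.0205 in oil and -0.275 to 0.0465 in CCl4. The numbers were therefore taken to pair the fractions within a treatment. The main fit carried no block, and the blocked fit was an alternative. Replicates differed by far more than sampling noise. The members and lists were chosen with earlier results of these data known, the named genes being the 8 members, Arg2, Slc25a12, Slc25a2, Glul, Gls2 and Glud1, the called genes of the lists in each comparison, and the 8 genes most alike in pattern. With 3 libraries a group, precision is limited by their spread and not by counting error. Results of 2 marker lists are not reported here.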

Additional observations from a re-analysis of the deposited data

Results flagged for a closer look

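The change in the Tom+ against Tom- difference between CCl4 and oil drew attention for 4 of the 8 urea cycle genes, for Slc25a13 by the test of that change and for Cps1, Ass1 and Asl because all same-numbered pairs lay on opposite sides in the 2 treatments. On the log2 scale the difference of differences was -0.78 for Ass1, -0.74 for Asl, -0.47 for Cps1 and 0.59 for Slc25a13, each from 3 libraries a group. Without the replicate block edgeR's adjusted p was 0.0446 for Slc25a13, 0.0532 for Asl, 0.13 for Ass1 and 0.216 for Cps1, where 1.55% of all genes passed. With the block all 4 passed, where 12.5% of all genes did. The block tests the same pair differences by which Cps1, Ass1 and Asl were picked, so for these genes its p is not separate evidence. Slc25a13 was picked by the test itself. By that choice Cps1, Ass1 and Asl were each on opposite sides in all pairs, higher in Tom+ in 3 of 3 in oil and lower in 3 of 3 in CCl4. The oil pairs numbered 1 and 2 include Tom- oil replicate 1 and Tom+ oil replicate 2, whose reporter went against the label. Of all genes, 11.8% switched side in this way in either direction. The value for Slc25a13 had an adjusted p of 0.135 without the 2 oil libraries whose reporter went against the label, and of up to 0.118 when single libraries were left out, passing in 2 of 12 cases.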

How the results depend on the processing

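Of the values with an alternative, 977 single-gene or list values and 104 counts of called members were rated the same. For a single gene this meant the same sign and the same call. A count was rated the same when it was close, as 3 and 4 are. A median was rated the same when it moved by less than the SD between libraries, even across 0. In Tom+ against Tom- in oil the median of the members was 0.0465, and -0.0261 without Tom+ oil replicate 1. In CCl4 against oil in Tom+ the count of called members was 3, and 3 to 4 when libraries were left out in turn, and it was 0 with the fold change averaged over both fractions, where Ass1, at -0.75, was just short of the fold threshold. On the adjusted p alone the counts were 5 there, 3 in Tom-, 2 in Tom+ against Tom- in CCl4 and 1 in the interaction. The interaction count, 0 as reported, was 1 with upper-quartile factors, at least 10 counts in every library, DESeq2, the replicate block and without both doubtful oil libraries, and 0 to 1 when libraries were left out in turn, being 1 without Tom- oil replicate 1 and without Tom- CCl4 replicate 3. The gene was Ass1 with DESeq2 and the block and Asl otherwise. The cause was not tested.

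The replicate block moved the adjusted p of 5 values of the 8 genes under 0.05 where the numbers pair (Cps1 and Ass1 in Tom+ against Tom- in CCl4, and Cps1, Ass1 and Asl in the interaction), and called Ass1 in the interaction. Across treatments same-numbered libraries correlated at 0.00898 to 0.0483 in Tom- and 0.0182 to 0.226 in Tom+, so that the numbers pair fractions and not treatments. A block between treatments, which shares only a number, gave Slc25a13 in CCl4 against oil in Tom+ an adjusted p of 0.048.

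Reversed signs arose in 40 cases. In all of them the value under the alternative was within 0.13 of 0 on the log2 scale, with an adjusted p of at least 0.713. Without both doubtful oil libraries Otc (0.10) and Slc25a15 (0.0206) reversed in Tom+ against Tom- in oil, Nags in CCl4 against oil in Tom+ (0.00808) and Slc25a15 in the interaction (-0.0557). Slc25a13 in CCl4 against oil was -0.29 in Tom- (edgeR adjusted p = 0.0453) and 0.30 in Tom+, and 0.00467 averaged over these opposite values. The interaction of Slc25a15 was -0.00128 with RLE, -0.0381 with upper-quartile factors, -0.0213 with at least 10 counts and -0.00127 with DESeq2, and that of Nags -0.000648 with upper-quartile factors. Leaving out libraries in turn gave ranges of -0.12 to 0.0352 for Otc and -0.15 to 0.10 for Slc25a15 in Tom+ against Tom- in CCl4. In oil they were -0.0744 to 0.0641 for Otc, -0.0822 to 0.0354 for Slc25a15, -0.0267 to 0.21 for Arg1 and -0.0302 to 0.0916 for Nags. Nags had -0.0794 to 0.0377 in CCl4 against oil in Tom+. In the interaction Otc had -0.10 to 0.0562, Nags -0.0276 to 0.0936 and Slc25a15 -0.13 to 0.13.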

Other observations

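Otc, Ass1, Asl, Arg1, Cps1 and Slc25a15 varied together over the 12 libraries, with r between 0.78 and 0.98 for each pair. Pearson's r of log2 levels, given as a description of libraries that share 4 group means, was 0.98 between Ass1 and Asl, 0.97 between Otc and Arg1, 0.93 between Cps1 and Ass1 and 0.93 between Otc and Slc25a15. Nags correlated with the other members at 0.10 to 0.37, and Slc25a13 with Asl at -0.50. The log2 ratio of Cps1 to Glul within a library, from TPM, was 4.47 ± 1.44 in Tom- oil, 5.62 ± 1.17 in Tom+ oil, 4.03 ± 1.0 in Tom- CCl4 and 2.21 ± 0.74 in Tom+ CCl4 (SD, n = 3), with replicates of 1.99, 3.03 and 1.60 in Tom+ CCl4 and 4.6, 4.62 and 2.87 in Tom- CCl4.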
